A study of Mus musculus with 14 samples.

Results

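The mark H3K4me3 was described at the mouse genes that encode the core histones H2A, H2B, H3 and H4 and the linker histone H1. Members were the protein-coding genes whose symbols begin with H1f, H2ac, H2bc, H3c or H4c, or whose older names begin with Hist1, Hist2, Hist3 or Hist4. This rule gave 71 genes, namely 10 for H1, 18 for H2A, 18 for H2B, 12 for H3 and 13 for H4. Of these, 54 lie in cluster 1 on chromosome 13, 10 in cluster 2 on chromosome 3, 2 in cluster 3 on chromosome 11, and 5 stand alone. A peak summit lay within 2 kb of 69 of the 71 genes, and the 321 summits in question, each counted once, are part of 153207 summits in the whole data set. Histone genes lie close together, so 159 of the 321 summits were within 2 kb of more than 1 histone gene and 29 were also within 2 kb of another protein-coding gene.

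Every library was made from prefrontal cortex, and the mice of all groups were C57BL/6J males of 10 to 12 weeks with no engineered allele named. Mice of the CSDS30 group (5 libraries) were attacked briefly each day by an unfamiliar CD1 mouse for 30 days and lived beside one behind a perforated wall, mice of the CSDS10 group (5 libraries) for 10 days, and control mice (3 libraries) lived in divided cages without an aggressor. The defeated mice were killed 24 hours after their final encounter. The labels do not say whether a library is 1 animal or a pool, so the tests below measure the spread between these libraries, which may be technical. Between 4512817 and 10887911 reads fell on the summits of a library, and all libraries carry the same batch date.

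Most genes of this group are replication-dependent: they have no introns, their mRNAs end in a stem-loop instead of a poly(A) tail, and they are transcribed in the S phase of dividing cells from nuclear bodies built around the coactivator NPAT. H1f0 and H1f10 are exceptions, single genes for replication-independent linker histones that are made outside S phase. Neurons of the adult cortex do not divide. H3K4me3 is a modification of histone H3 that sits at the starts of active and poised genes, so here it is read on the genes for the histones themselves, not on the histone proteins they encode.

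The sequence upstream of these genes is shown first because their promoters share short elements and, in some copies, long identical stretches. Each line gives the 150 bases before the annotated start, 5′ to 3′ on the strand of the gene, from RefSeq on GRCm38.p6. Capitals mark any match, on either strand, to TATAAA (the TATA box), CCAAT (the box bound by NF-Y), ATTTGCAT (the octamer bound by POU2F1) or AAACACA (an element known from H1 genes), none of which contains another.
H1f2 (chr13:23738657-23738806, plus strand): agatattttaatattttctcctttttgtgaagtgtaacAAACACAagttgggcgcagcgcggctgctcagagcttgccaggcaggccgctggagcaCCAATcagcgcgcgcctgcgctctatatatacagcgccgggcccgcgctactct
H1f4 (chr13:23622559-23622708, minus strand): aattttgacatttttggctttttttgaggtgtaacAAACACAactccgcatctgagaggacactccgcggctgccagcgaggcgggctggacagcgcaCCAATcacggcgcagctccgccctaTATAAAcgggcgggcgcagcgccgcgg
H1f0 (chr15:79028062-79028211, plus strand): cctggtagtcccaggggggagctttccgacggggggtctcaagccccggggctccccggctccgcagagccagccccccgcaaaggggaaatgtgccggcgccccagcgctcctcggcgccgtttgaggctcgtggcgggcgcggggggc
H2bc14 (chr13:21721894-21722043, plus strand): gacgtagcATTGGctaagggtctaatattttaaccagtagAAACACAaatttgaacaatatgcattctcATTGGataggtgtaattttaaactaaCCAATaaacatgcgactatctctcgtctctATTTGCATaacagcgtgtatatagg
H4c12 (chr13:21750554-21750703, minus strand): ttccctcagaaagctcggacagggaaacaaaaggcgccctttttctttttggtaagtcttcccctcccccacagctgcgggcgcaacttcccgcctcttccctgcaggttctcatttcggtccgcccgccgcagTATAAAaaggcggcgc
H4c17 (chr13:21811596-21811745, plus strand): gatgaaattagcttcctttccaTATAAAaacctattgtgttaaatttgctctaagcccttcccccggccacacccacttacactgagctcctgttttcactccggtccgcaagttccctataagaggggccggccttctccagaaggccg
H2bc23 (chr13:21810200-21810349, minus strand): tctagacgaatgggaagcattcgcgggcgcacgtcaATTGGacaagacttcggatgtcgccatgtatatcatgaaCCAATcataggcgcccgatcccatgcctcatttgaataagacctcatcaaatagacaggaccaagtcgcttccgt
H1f2 and H1f4 are somatic linker histone genes of cluster 1, and both lines hold AAACACA and CCAAT, with TATAAA added in H1f4. H1f0, the replication-independent gene, has none of the 4 elements in this stretch. H2bc14 shows the octamer together with CCAAT and AAACACA, and H4c12 shows a TATA box close to the start. H4c17 and H2bc23 stand for the copied genes. The upstream stretch of H2bc23 belongs to a window of 300 bases that is identical in H4bc24, and the windows of H4c17 and H4c18 share an unbroken run of 285 bases.

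Across the 67 promoter windows of 66 histone genes in the table (250 bases before the start, both strands), CCAAT was present in 79.1%, against 33.8% of all 32851 promoters. It was in 18 of 18 windows of H2A genes and in 17 of 17 of H2B genes, but in 3 of 12 of H4 genes. TATAAA was in 43.3% of histone windows and in 12.4% of all promoters. The octamer was in 20.9% of histone windows and in 1.6% of all promoters, in 7 of 18 H2A windows, 7 of 17 H2B windows and none of the H1, H3 or H4 windows. AAACACA was in 13.4% of histone windows and 6.25% of all, and in 5 of 10 H1 windows. The gene starts formed 10 divergent pairs no more than 400 bp apart, each of 1 H2A gene and 1 H2B gene, with gaps between 164 and 281 bp. The 5 histone genes without an annotated start in the promoter table, among them H2bc4 and H2bc21, could not enter this count. A match to these letters is a description of the sequence and not a measured binding site.

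H3K4me3 signal was low at most histone genes of the cortex. Levels are normalised read counts per summit, which the authors made by dividing the reads of a library by 1 size factor, and the level of a gene is that of its strongest summit within 2 kb. Over the 41 distinct strongest summits that could be tested, the median was 52.4 ± 3.85 in CSDS30 (SD, n = 5), 55.7 ± 5.33 in CSDS10 (SD, n = 5) and 50.5 ± 4.27 in control (SD, n = 3). Over the 13417 strongest summits of all protein-coding genes it was 89.4 ± 5.62 in CSDS30, 96.0 ± 5.86 in CSDS10 and 95.1 ± 0.959 in control. The histone median was the lower one in 13 of 13 libraries. Of the 69 histone genes with a summit, 66 were below the median protein-coding gene and 46 were in the lowest 20%. In bulk tissue, a mark carried by few cells and a weak mark in many cells cannot be told apart. As described below, many summits inside histone genes held few reads for their peak score, and the part of this in the levels was not tested. The strongest summit was taken over the gene and 2 kb to each side, so longer genes had a longer stretch to draw it from.

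**Figure D1:**
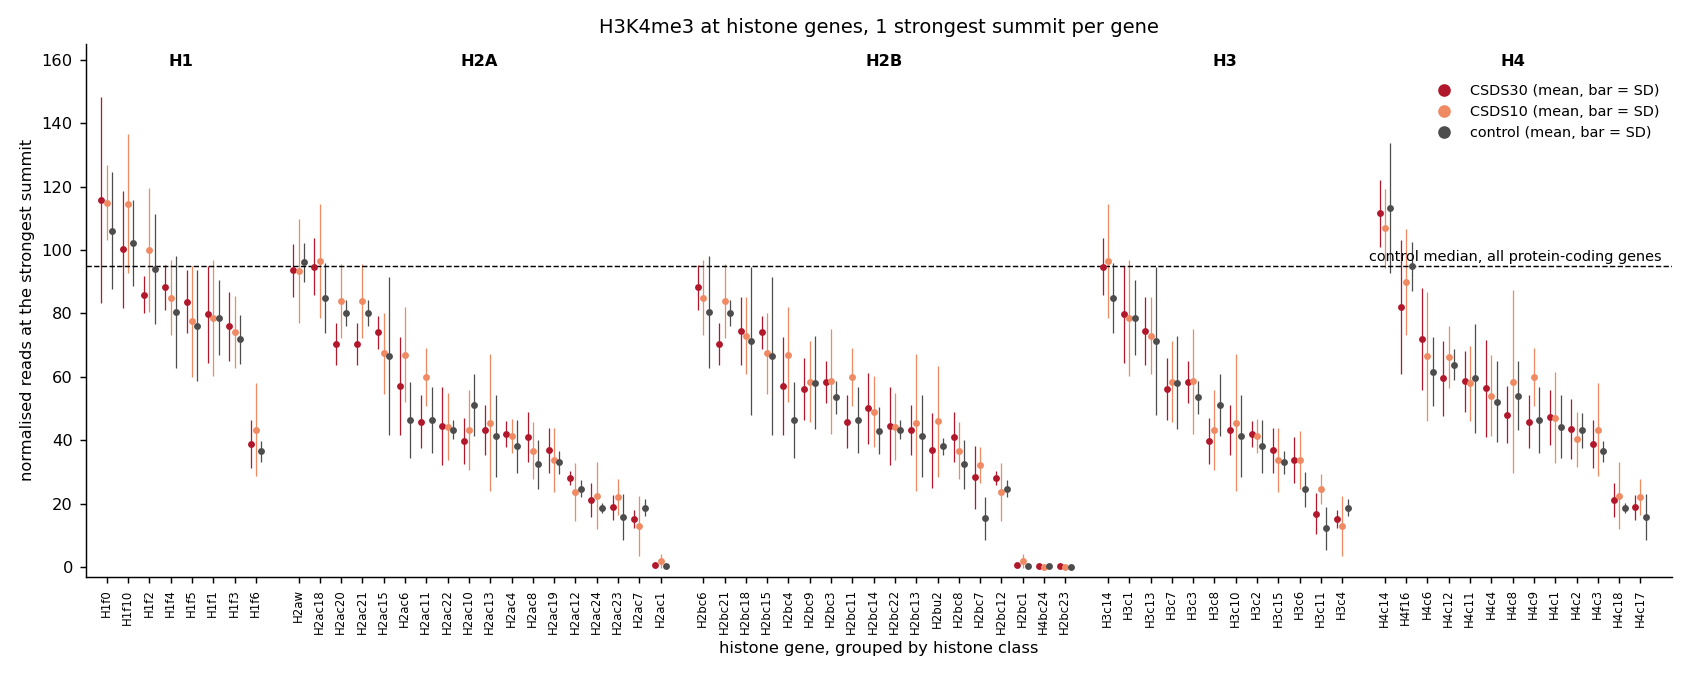
Normalised reads at the strongest summit (vertical axis) of each histone gene with a summit, grouped by histone class and ordered by level; points are group means and bars the SD (CSDS30 n = 5, CSDS10 n = 5, control n = 3), and genes that share a summit show the same values. Most means lie under the dashed control median of all protein-coding genes (95.1); H1f0, H4c14 and H1f10 lie above it in each group, and 4 genes lie near 0.

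Levels were higher at linker histone genes than at core histone genes. The median of the strongest summits of H1 genes (8 summits) was 82.8 ± 6.73 in CSDS30, 86.0 ± 6.39 in CSDS10 and 82.2 ± 13.4 in control. In control it was 48.8 ± 5.98 for H4 genes (13 summits), 46.4 ± 4.98 for H3 genes (12 summits), 40.6 ± 3.81 for H2B genes (18 summits) and 39.9 ± 2.97 for H2A genes (17 summits; SD, n = 3 each). Each of the 4 core classes was below H1 in 13 of 13 libraries. Among the core classes the order was not stable: H3 was below H4 in 9 libraries, H2B below H3 in 6 and H2A below H2B in 10 of 13. These classes share several summits and libraries share the peak set, so the order is a description without a test. For 52 genes the strongest summit also lay within 2 kb of another histone gene. With only summits within 500 bp of a start, a setting chosen after seeing the data, H3 genes had the lowest control median. It was 20.9 ± 3.05 for H3 (9 summits), 35.5 ± 4.49 for H2A (15), 41.1 ± 4.71 for H2B (14) and 47.5 ± 2.16 for H4 (12). For H1 it was 86.2 ± 5.42 (7 summits).

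The highest level belonged to H1f0 (chromosome 15, 79028076 to 79028077, mm10), at -136 bp from its start and inside the stretch printed above. Its strongest summit had 83, 95.3, 137, 102 and 162 normalised reads in the CSDS30 libraries, 108, 123, 98.8, 129 and 116 in the CSDS10 libraries, and 118, 116 and 84.8 in the control libraries. The 3 groups overlapped, and CSDS30 was the most spread. H1f10 (chromosome 6, 87981802 to 87981803), the other replication-independent gene, was at 121, 73.4, 92.6, 103 and 111 in CSDS30, 118, 144, 92.2, 125 and 93.5 in CSDS10, and 90.8, 117 and 98.6 in control. These groups overlapped as well. Among all 15248 protein-coding genes with a summit, H1f0 was at percentile 70.7 and H1f10 at percentile 61.0.

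A single core gene, H4c14 of cluster 2 (chromosome 3, 96263201 to 96263202), stood between these linker histone genes. It had 117, 123, 114, 95 and 109 normalised reads in CSDS30, 114, 124, 101, 103 and 91.9 in CSDS10, and 97.8, 105 and 136 in control. Its percentile was 66.4, and the groups overlapped. Next came H2aw of cluster 3, an H2A gene, at 93.6 ± 8.33 in CSDS30, 93.3 ± 16.4 in CSDS10 and 96.1 ± 6.24 in control. H1f2 followed at 86.0 ± 5.76 in CSDS30, 100.0 ± 19.6 in CSDS10 and 93.9 ± 17.4 in control. Means over all 13 libraries were 113 for H1f0, 110.1 for H4c14, 106 for H1f10, 94.04 for H2aw and 93.2 for H1f2. The order of these genes was not tested.

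The other somatic linker histone genes of cluster 1 formed a narrow band. H1f4, whose strongest summit also lies within 2 kb of H2bc6, was at 88.2 ± 7.04 in CSDS30, 84.9 ± 11.8 in CSDS10 and 80.4 ± 17.6 in control. H1f5 was at 83.7 ± 9.84 in CSDS30, 77.5 ± 17.6 in CSDS10 and 76.2 ± 17.6 in control. H1f1, whose strongest summit is also that of H3c1, was at 79.7 ± 15.4 in CSDS30, 78.7 ± 18.3 in CSDS10 and 78.7 ± 11.8 in control. H1f3 was at 76.0 ± 10.9 in CSDS30, 74.3 ± 11.4 in CSDS10 and 71.8 ± 7.76 in control. The 3 groups overlapped in each of these genes. H4f16, the single H4 gene on chromosome 6, was at 82.0 ± 21.0 in CSDS30, 89.97 ± 16.7 in CSDS10 and 94.9 ± 7.70 in control.

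Of the 5 germ cell histone genes matched, 4 had no summit or a nearly empty one. H1f7, made in spermatids, and H1f8, the oocyte linker histone, are the 2 members without a summit within 2 kb. H2ac1 and H2bc1, the testis genes for TH2A and TH2B, are a divergent pair that shares 1 summit, which held 14 reads over all 13 libraries and 0 reads in 5 of them. A library with 0 reads allows up to 3 reads, which are worth between 2.10 and 5.08 normalised reads depending on the library (counting error only). H1f6, the testis gene for H1t, had no summit within 500 bp of its start. Its strongest summit, shared with H4c3, lies 2266 bp from its own start and 381 bp after the start of H4c3. This summit was at 38.8 ± 7.57 in CSDS30, 43.2 ± 14.7 in CSDS10 and 36.5 ± 3.29 in control, and it does not measure the H1f6 promoter. H1f9 was not matched in the gene table.

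The histone genes differed from other genes most just downstream of the start. Between 100 and 300 bp after the annotated start, where the median summit of all protein-coding genes was highest (84.3 normalised reads, 11699 summits), the median summit of histone genes was 23.4 (69 summits). The deposited peak scores in the same place had a median of 41.1 at histone genes and 62.6 at all protein-coding genes. H1 genes had a median of 71.4 there (9 summits) and H3 genes 14.1 (11 summits).

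**Figure D2:**
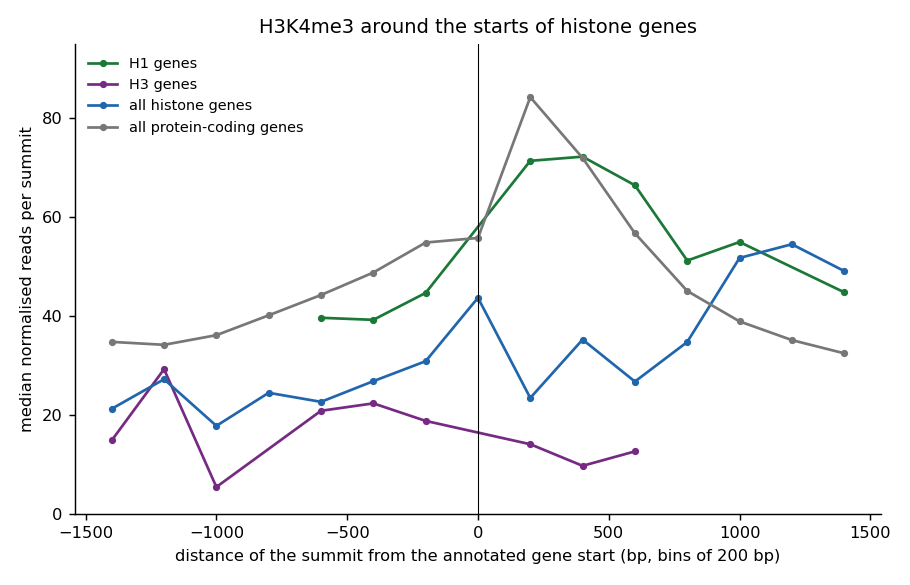
Median normalised reads per summit (mean of 13 libraries, vertical axis) by distance from the annotated gene start (horizontal axis, bins of 200 bp; points with 3 or more summits), for H1 genes, H3 genes, all histone genes and all protein-coding genes. Protein-coding genes peak at 84.3 in the bin at 200 bp, where histone genes as a whole are at 23.4 and H1 genes at 71.4.

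Summits inside histone genes held few reads for their peak score. Here a summit counts as inside when it lies between the gene's boundaries, or, for genes over 1.5 kb, within 500 bp after the start. Of the 133 summits inside histone genes, 33 (24.8%) had a mean below 10 normalised reads. Outside the genes it was 3 of 188 (1.6%), and among all summits 1203 of 153207 (0.785%). The median peak score was 32.8 over all 133 summits inside the genes, 10.7 over the 188 outside and 13.6 over all summits. The peak score is the authors' own value for each summit of the shared peak set, and its scale is not given in the sources used here. With a peak score of at least 20, 25 of 100 summits inside histone genes were below 10 normalised reads, against 3 of 57 outside and 370 of 60038 (0.616%) among all summits.

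**Figure D3:**
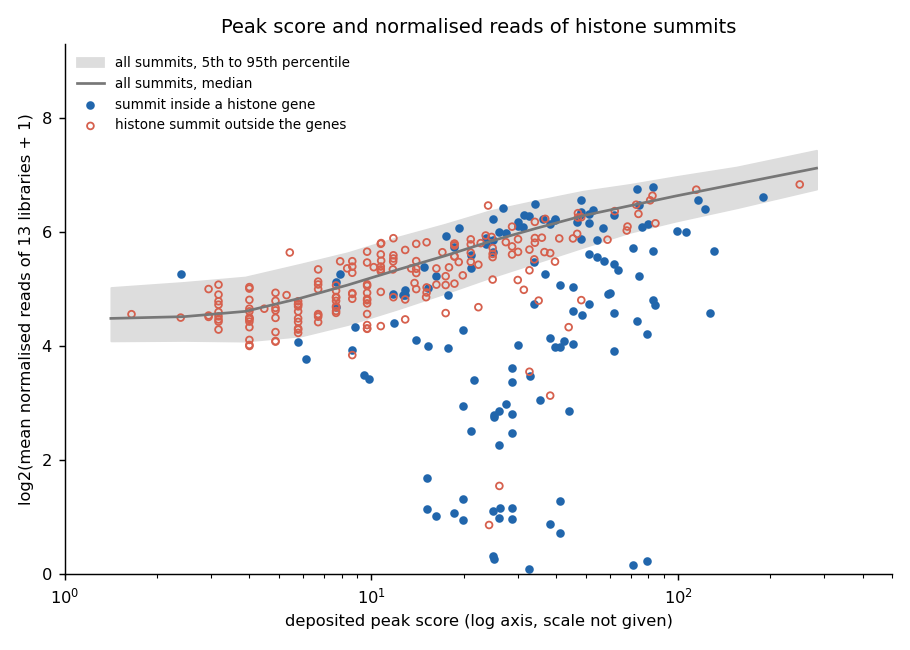
Mean normalised reads of the 13 libraries on a log2 scale with 1 added (vertical axis) against the deposited peak score (horizontal log axis) for summits inside histone genes (filled) and outside them (open); the band spans the 5th to 95th percentile of all summits at that score. Below 10 normalised reads lie 33 of the 133 filled points and 3 of the 188 open points.

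The low summits were unevenly shared among the classes. Inside H3 genes the median was 9.82 ± 1.89 in CSDS30, 10.7 ± 1.3 in CSDS10 and 9.59 ± 1.58 in control, and 12 of 26 summits were below 10. Inside H2A genes 11 of 33 were below 10, inside H2B genes 8 of 31, inside H4 genes 2 of 19 and inside H1 genes 0 of 24. The median inside H1 genes was 69.9 ± 5.81 in CSDS30, 70.6 ± 5.37 in CSDS10 and 71.01 ± 1.36 in control. Summits inside H3 genes had a lower median than those inside H4 genes in 13 of 13 libraries.

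The summit with the fewest reads lies inside H2bc22 (chromosome 13, 21787767 to 21787768), with a peak score of 32.8 and 1 read over all 13 libraries. Its promoter window shares no stretch of 100 bases with another promoter. The next were in copied genes of cluster 1. The summit inside H4c17 (chromosome 13, 21811880 to 21811881), the only one of H2bc23, has a peak score of 71.4, yet it held 2 reads in all: 1.57 normalised reads in CSDS30 replicate 1 and 0 in the other 12 libraries. The summit inside H4c18 (chromosome 13, 21832056 to 21832057), the only one of H4bc24, has a peak score of 79.4 and also held 2 reads, 1 in CSDS30 replicate 2 and 1 in control replicate 1. H4bc24 is an H2B gene by its older name, Hist1h2br. Summits inside H2ac7 and H2ac10, whose promoter windows share no such stretch either, held 3 and 4 reads. The windows of H2bc22, H2ac7 and H2ac10 end before these summits, and sequence inside the genes was not compared. Flanking summits of H4c17 and H4c18 were higher. That 514 bp after the start of H4c17 was at 18.8 ± 3.92 in CSDS30, 22.1 ± 5.72 in CSDS10 and 15.8 ± 7.33 in control. That 498 bp after the start of H4c18 was at 21.3 ± 5.41 in CSDS30, 22.5 ± 10.6 in CSDS10 and 18.7 ± 1.47 in control. In the promoter windows, a stretch of 100 bases or more recurred exactly in another promoter for 10 genes, which include H4c17, H4c18, H2bc23, H4bc24, H2ac23, H2ac24 and, in cluster 2, H3c14, H3c15, H2ac18 and H2ac19. The longest run shared by H3c14 and H3c15 was 231 bases and that by H2ac18 and H2ac19 was 219 bases. How reads with several matching places were counted is not given in the sources used here, and the part of identical sequence in the low values was not tested.

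In all, 28 of the 321 histone summits (8.72%) were too low to be tested for stress, against 937 of 153207 (0.612%) of all summits, and 26 of the 28 lie inside histone genes. The filter left 293 summits of 65 genes. The 6 genes without a tested summit are H1f7, H1f8, H2ac1, H2bc1, H2bc23 and H4bc24.

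Social defeat was then compared with control housing at the 293 tested summits, and 0 of them passed the threshold (adjusted p under 0.05, limma) in CSDS10 against control (0% of all 152270 tested summits), in CSDS30 against control (0%) or in CSDS30 against CSDS10 (0%). edgeR and DESeq2 also called 0 of them. The smallest adjusted p of a histone summit by limma was 0.963, in CSDS30 against CSDS10. An unadjusted p under 0.05 was reached by 11 histone summits (3.75%; 3.21% of all) in CSDS10 against control, 10 of them higher (1.99% of all) and 1 lower (1.22% of all). In CSDS30 against control there were 9 (3.07%; 3.41% of all), with 5 higher (1.44% of all) and 4 lower (1.97% of all). In CSDS30 against CSDS10 there were 12 (4.10%; 5.12% of all), with 5 higher (2.01% of all) and 7 lower (3.11% of all). The totals are near the background. The 95% interval of a log2 fold change extended by 0.529 to either side in the median summit of the comparisons with control and by 0.458 in CSDS30 against CSDS10.

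The medians were close to 0. The median log2 fold change of the 293 histone summits was 0.06 in CSDS10 against control (182 above 0, or 62.1%, against 50.3% of all summits), beside 0.0017 over all summits. It was 0.06 in CSDS30 against control (168 above 0, or 57.3%, against 50.8% of all), beside 0.0043 over all. In CSDS30 against CSDS10 it was -0.02 (127 above 0, or 43.3%, against 49.9% of all). Both comparisons with control share the control libraries and moved with them: without control replicate 2 the medians were 0.0011 for CSDS10 and -0.0016 for CSDS30, and without control replicate 1 they were 0.14 and 0.11. The CSDS30 median was also 0.03 without control replicate 3 or CSDS30 replicate 3 and 0.11 without CSDS30 replicate 5. In CSDS30 against CSDS10 the median was 0.05 without CSDS30 replicate 5 and -0.05 without CSDS10 replicate 2. The histone median of a library was 35.8 ± 4.31 in CSDS30, 35.3 ± 1.86 in CSDS10 and 34.1 ± 3.31 in control, and histone summits took 0.159% ± 0.0100 of the reads in CSDS30, 0.159% ± 0.00688 in CSDS10 and 0.153% ± 0.0127 in control, differences within the SD. Across all summits the fold change in CSDS30 against control varied with level, with a median of 0.08 for summits below 20 normalised reads and -0.08 for those of 80 or more. Histone summits of 80 or more (18 summits) had a median of -0.05 in that comparison, and those between 20 and 40 (119 summits) 0.11 against 0.07 for all summits of that level. The part of level in the histone medians was not tested.

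**Figure D4:**
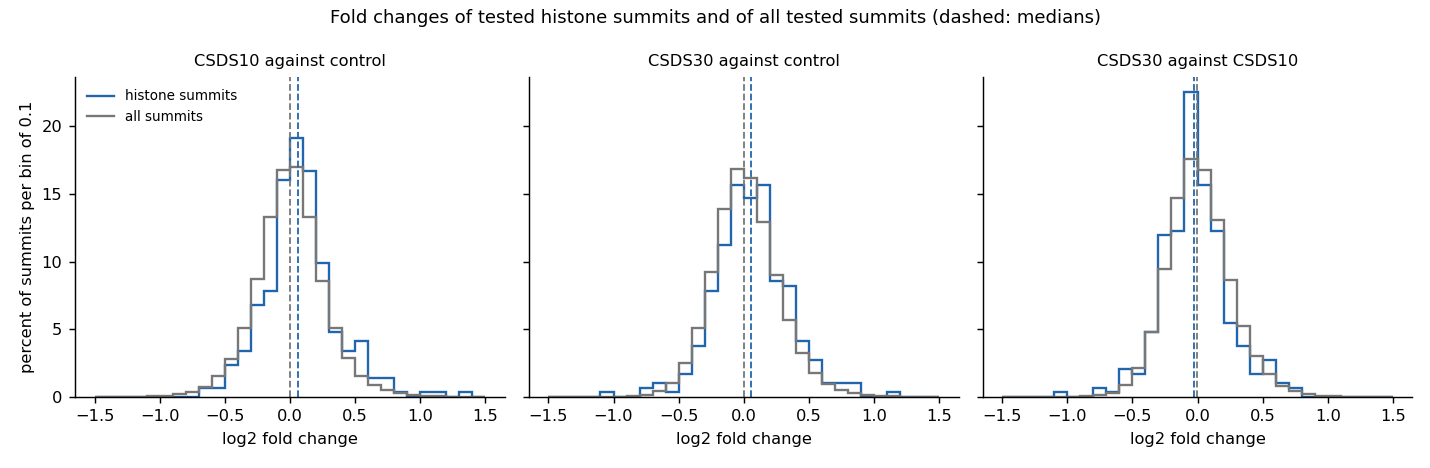
Percent of summits per 0.1 of log2 fold change (horizontal axis) for the 293 tested histone summits and all 152270 tested summits in the 3 comparisons; dashed lines are the medians. The distributions overlap almost fully, and the histone medians are 0.06, 0.06 and -0.02.

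By class, the strongest summits of H2B genes had a median log2 fold change of 0.09 in CSDS10 against control (13 of 15 above 0) and 0.12 in CSDS30 against control (10 of 15). For H2A genes it was 0.06 (10 of 16) and 0.14 (10 of 16), for H3 genes 0.07 (8 of 12) and 0.11 (9 of 12), for H1 genes 0.08 (7 of 8) and 0.07 (6 of 8), and for H4 genes 0.04 (9 of 13) and 0.0021 (7 of 13). Over all protein-coding genes it was 0.0095 (7049 of 13417 above 0) in CSDS10 against control and -0.07 (4558 of 13417) in CSDS30 against control. Over all tested summits of a class the medians were 0.02 (43 of 83 above 0) in CSDS10 against control and 0.03 (44 of 83) in CSDS30 against control for H1 genes. They were 0.07 (64 of 99) and 0.05 (55 of 99) for H2A genes, 0.09 (90 of 127) and 0.06 (73 of 127) for H2B genes, 0.11 (47 of 68) and 0.09 (42 of 68) for H3 genes, and 0.08 (40 of 66) and 0.07 (39 of 66) for H4 genes. The 34 summits of single genes had medians of -0.06 and -0.08, with 11 above 0 in each comparison. No class had a called summit. Divergent genes often count the same summit, so the classes are not independent.

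Single summits are described next, none of which passed the threshold. Among strongest summits, the smallest p in both comparisons with control was at one 2177 bp after the start of H2bc7 (chromosome 13, 23572030 to 23572031), which also lies within 2 kb of H2ac8 and H2bc8 and is the strongest summit of H2bc7 alone. It had 29.0, 45.3, 23.1, 21.4 and 22.5 normalised reads in CSDS30, 27.9, 26.8, 29.2, 39.0 and 37.4 in CSDS10, and 23.1, 10.4 and 12.6 in control. All CSDS10 libraries were above all control libraries, while CSDS30 overlapped with control. The log2 fold change was 1.07 ± 0.32 (SE) in CSDS10 against control and 0.86 ± 0.32 in CSDS30 against control (limma, adjusted p = 0.9999 and 1.0). The summit over the promoter that H2bc7 shares with H2ac7, also the strongest of H2ac7 and H3c4 (chromosome 13, 23574128 to 23574129), had fold changes of the opposite sign. It was at 18.8, 14.1, 16.8, 11.1 and 15.2 in CSDS30, 14.8, 8.47, 7.53, 28.8 and 5.69 in CSDS10, and 21.0, 15.6 and 19.5 in control. The groups overlapped, and the log2 fold change was -0.70 ± 0.42 in CSDS10 against control and -0.29 ± 0.42 in CSDS30 against control (limma, adjusted p = 0.9999 and 1.0), the second being -0.19 without CSDS30 replicate 4.

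H3c11 of cluster 1 (chromosome 13, 21783612 to 21783613, at -215 bp from its start) had 22.7, 10.9, 23.1, 18 and 9.42 normalised reads in CSDS30, 24.6, 19.8, 24.5, 32.2 and 22.0 in CSDS10, and 16.1, 4.34 and 16.05 in control. CSDS10 lay above control without overlap, and CSDS30 overlapped with both. The log2 fold change was 1.13 ± 0.40 in CSDS10 against control, 0.54 ± 0.40 in CSDS30 against control and -0.59 ± 0.35 in CSDS30 against CSDS10 (limma, adjusted p of 0.963 or more). Without control replicate 2, the first of these was 0.57 and the second -0.02. The group means of the other summits of H3c11 lay between 12.3 and 18.5, and the largest of them was CSDS10 at the summit at -400 bp.

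The strongest summit of H2ac6 and H2bc4 lies at -1406 bp from the start of H2ac6 and between the annotated ends of H2bc4. The start of H2bc4 was not in the promoter table. This summit was at 54.03, 49.98, 79.9, 63.3 and 38.4 in CSDS30, 71.4, 42.3, 71.5, 83.01 and 66.7 in CSDS10, and 42.6, 36.5 and 59.6 in control. All groups overlapped. Its log2 fold change in CSDS10 against control was 0.52 ± 0.23 (limma, adjusted p = 0.9999). The summit of H4c9, H2ac11 and H2bc11 was at 48.5, 46.9, 47.3, 54.8 and 31.9 in CSDS30, 60.7, 64.9, 68.7, 61.0 and 44.7 in CSDS10, and 45.4, 36.5 and 57.3 in control. All CSDS10 libraries but replicate 5 lie above every CSDS30 and control library, and the log2 fold change was 0.37 ± 0.22 in CSDS10 against control and -0.39 ± 0.19 in CSDS30 against CSDS10 (limma, adjusted p of 0.963 or more). Without control replicate 2, the first of these was 0.22. H2ac10 and H3c8 share a summit at -6 bp from the start of H3c8, which was at 30.5, 35.9, 42.1, 40.2 and 49.998 in CSDS30, 43.5, 45.2, 63.1, 30.5 and 34.1 in CSDS10, and 48.9, 61.7 and 42.4 in control. Here the control mean was the highest of the 3, with a log2 fold change of -0.35 ± 0.25 in CSDS30 against control (limma, adjusted p = 1.0), or -0.21 without control replicate 2.

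**Figure D5:**
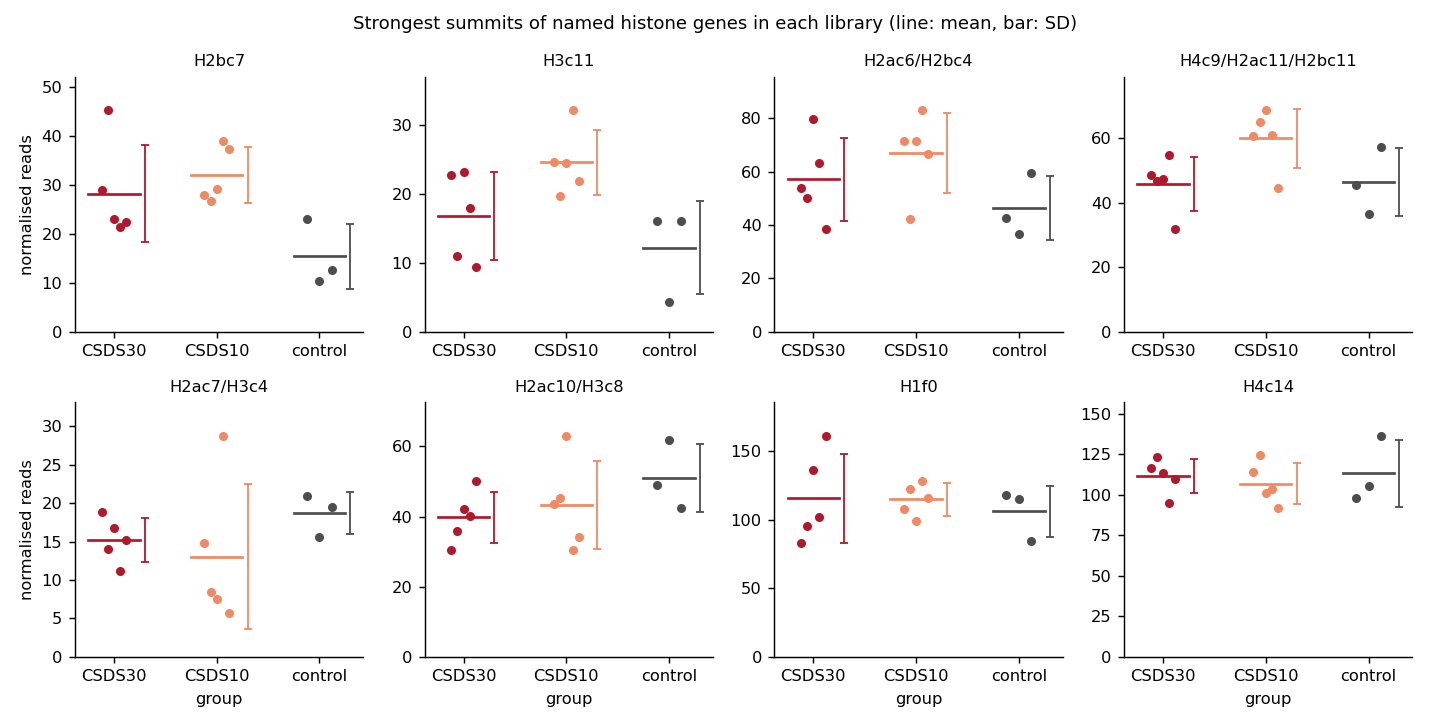
Normalised reads (vertical axes, from 0) at the strongest summits of 8 named histone genes or groups of genes in each library of CSDS30 (n = 5), CSDS10 (n = 5) and control (n = 3); lines are means and bars the SD. The CSDS10 points of H2bc7 (26.8 or more) and H3c11 (19.8 or more) lie above the control points, and in the other 6 panels all groups overlap.

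The remaining summits with the smallest p differed less. In CSDS30 against control the log2 fold change was 0.44 ± 0.29 for H3c6, 0.34 ± 0.26 for the divergent pair H2ac8 and H2bc8, -0.24 ± 0.19 for H4f16 and -0.19 ± 0.17 for H2ac21, H2ac20 and H2bc21 of cluster 2. In CSDS30 against CSDS10 it was 0.34 ± 0.28 for H2ac12 and H2bc12, 0.41 ± 0.36 for H2ac7 and H3c4, 0.16 ± 0.18 for H2ac15 and H2bc15, 0.13 ± 0.16 for H1f5, -0.25 ± 0.14 for H2ac21, H2ac20 and H2bc21, and -0.19 ± 0.15 for H1f2. In CSDS10 against control H2ac12 and H2bc12 were at -0.16 ± 0.32 and H4c14 at -0.07 ± 0.15. The groups overlapped in each of these, and single libraries moved several of them. In CSDS30 against control, H2ac8 and H2bc8 were at 0.13 without control replicate 2 and H4f16 at -0.16 without CSDS30 replicate 4. In CSDS30 against CSDS10, values without CSDS10 replicate 2 were 0.08 for H2ac12 and H2bc12, 0.03 for H2ac15 and H2bc15, 0.07 for H1f5 and -0.13 for H1f2. Without CSDS10 replicate 4 they were 0.73 for H2ac7 and H3c4, 0.23 for H1f5 and -0.33 for H1f2, and without CSDS10 replicate 5 the value of H2ac7 and H3c4 was 0.20. The replication-independent genes differed little from control, with 0.10 ± 0.17 for H1f0 and -0.04 ± 0.17 for H1f10 in CSDS30, and 0.12 ± 0.17 and 0.15 ± 0.17 in CSDS10 (SE; limma, none past the threshold).

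Over all tested summits, groups that did not overlap were rare. In CSDS10, 10 of 293 histone summits in 9 called regions lay wholly above control (3.41%, against 1.59% of all summits) and 3 wholly below (1.02%, against 1.40%). In CSDS30, 1 lay above control (0.341%, against 1.23%) and 1 below (0.341%, against 1.74%). Between CSDS30 and CSDS10 there was none in either direction, against 0.334% and 0.387% of all summits.

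The listed genes that act on the histone genes, on their products or in DNA replication had higher levels than the histone genes. The same held for all protein-coding genes, whose strongest summits had a median of 95.1 ± 0.959 in control. In control, the median of the strongest summits was 117 ± 2.76 for 26 genes of histone gene transcription and mRNA processing, 110 ± 5.99 for 25 histone chaperone genes, 110 ± 5.47 for 10 tested of 14 histone variant genes and 97.5 ± 3.48 for 30 genes of DNA replication and proliferation (SD, n = 3 each). Npat, which encodes the coactivator of replication-dependent histone genes, was at 114 ± 18.7 in CSDS30, 121 ± 14.1 in CSDS10 and 126 ± 5.67 in control. Slbp, which encodes the protein that binds the stem-loop of histone mRNAs, was at 117 ± 21.8 in CSDS30, 121 ± 20.4 in CSDS10 and 131 ± 7.13 in control. Some of the variant genes encode histones that replace the canonical ones outside S phase. H3f5 was not matched in the gene table, and H2bu2, one of the listed variant genes, is also a member of the histone genes described here.

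No summit of these lists passed the threshold in any comparison (limma). In CSDS30 against control the median log2 fold change was -0.15 for the processing factors (8 of 26 above 0), -0.14 for chaperones (9 of 25), -0.12 for variants (0 of 10) and -0.09 for proliferation genes (8 of 30), beside -0.07 for the strongest summits of all protein-coding genes. In CSDS10 against control it was -0.03, 0.04, 0.0002 and 0.03 for the same lists, with 12 of 26, 16 of 25, 5 of 10 and 17 of 30 above 0. The smallest p belonged to Yy1 (-0.44 ± 0.18 in CSDS30 against control) and Casp8ap2 (-0.34 ± 0.13 in CSDS30 against CSDS10), to Hira (-0.43 ± 0.13) and Rbbp4 (-0.37 ± 0.13), both in CSDS30 against CSDS10, to Macroh2a2 (-0.28 ± 0.14) and H2aj (-0.37 ± 0.20), both in CSDS30 against control, and to the cyclin genes Ccna2 and Ccnb1. Ccnb1 was at 94.4 ± 14.5 in CSDS30, 67.9 ± 11.5 in CSDS10 and 64.6 ± 7.93 in control, and Ccna2 at 39.2 ± 7.28 in CSDS30, 51.3 ± 5.43 in CSDS10 and 63.5 ± 18.8 in control. The CSDS30 libraries of these 2 cyclin genes did not overlap with control, in opposite directions (log2 fold changes of 0.54 ± 0.18 and -0.66 ± 0.22; limma, adjusted p = 1.0). Among the listed genes, Aurkb, Cpsf3 and Cramp1l also lay wholly below control in CSDS30. Over all tested summits, 1.23% lay wholly above control in CSDS30 and 1.74% wholly below.

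The tissue label was checked on marker genes. A summit was found at 4 of 4 neuronal, 5 of 5 excitatory and 3 of 3 inhibitory neuron markers, at 3 of 3 astrocyte and 3 of 3 endothelial markers, at 2 of 2 precursor markers and at 1 of 3 microglial markers (not Cx3cr1 or Csf1r). All 5 markers of cycling cells had one, with group medians of 81.04 in CSDS30, 74.98 in CSDS10 and 83.8 in control. Neuron markers had lower medians in CSDS30, CSDS10 and control. These were 51.6, 60.3 and 53.7 for neuronal, 42.9, 41.8 and 42.6 for excitatory, and 28.3, 25.7 and 25.2 for inhibitory markers. In all, 15248 protein-coding genes had a summit, so the presence of summits alone does not settle the tissue. Of 5 genes of other organs, only Myod1 had a summit, at 23.7 ± 9.51 in CSDS30, 23.2 ± 8.31 in CSDS10 and 16.2 ± 5.04 in control.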

How the data were processed

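H3K4me3 ChIP-seq was measured in 13 libraries; 1 input library was not analysed here. Per the labels' protocols, chromatin was cut to mononucleosomes with micrococcal nuclease, amplified with 6 to 8 PCR cycles and sequenced single-end over 100 bases. Per the submitters' processing notes, the tools were Bowtie2, MACS2, Trimmomatic and DESeq2 and the builds GRCm38.p5 and mm10; their roles and versions and the counting window are not stated in the sources used here. The authors' deposited normalised signal is the reads of a library divided by a single size factor: 100% of values are whole multiples of a library's step (tolerance 0.001 reads), so read counts could be recovered. The authors' peak score was used only to describe and group summits.

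limma 3.58.1 (R 4.3.3) was fitted to log2(value + 1) of the 152270 summits kept by filterByExpr on the recovered reads, with a variance trend and 1 mean per group over all 13 libraries, and Benjamini-Hochberg adjustment over all summits (threshold 0.05). On this scale a fold change understates the change of low summits. As alternatives, edgeR 4.0.16 and DESeq2 1.42.0 were run on the recovered counts, and neither called any summit. The limma fit was tested on simulated data with 200 changed summits among 152270. Of 2-fold changes it recovered 34% in CSDS10 against control, 37% in CSDS30 against control and 56% in CSDS30 against CSDS10. Of 3-fold changes it recovered 80%, 81% and 92.5%. Many real 2-fold changes could therefore be missed. Genes came from a RefSeq table (GRCm38.p6) and were matched by symbol or older name. Named genes were, per comparison, the 4 smallest p-values per direction among strongest summits, the 5 highest and 4 lowest levels, the linker, single and germ cell genes, and 2 genes per list with Npat and Slbp. The members, lists and rules were chosen with earlier results of these data known. The alternatives are given in the closing section. The result of 1 marker list is not reported here.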

Additional observations from a re-analysis of the deposited data

How the results depend on the processing

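With other settings (pseudocounts of 0.5 and 5, no filter, a mean of at least 20, other scalings, no variance trend, edgeR, DESeq2, library weights, only the groups compared, distances of 1 kb and 5 kb, sums per region) and without each library in turn, 0 histone summits were called in each comparison. The median control level of 34.1 normalised reads was 50.5 with the strongest summit of each gene and 46.5 with summits within 500 bp of a start, a setting chosen after seeing the data, as was taking summits outside the genes. Without 1 library it ranged between 32.3 and 35.5. Medians without 1 library ranged between 0.0011 and 0.143 in CSDS10 against control, -0.0016 and 0.111 in CSDS30 against control, and -0.049 and 0.049 in CSDS30 against CSDS10; the last was also above 0 with total-read scaling (0.0018), strongest summits (0.0197) and summits near starts (0.0152). With a replicate block the medians were 0.0667, 0.105 and -0.0244. Numbers did not pair the libraries: of 11 same-numbered pairs, 3 had a correlation of deviations over 0.1 (range -0.287 to 0.368). Of the named summits, H2ac12 and H2bc12 in CSDS10 against control changed sign with library weights (0.041) and ranged between -0.307 and 0.104 without 1 library. H4c14 in the same comparison changed sign under the replicate block (0.0080) and ranged between -0.171 and 0.067. H3c11 in CSDS30 against control ranged between -0.020 and 0.818. The cause was not tested. Reads limit these values: H2bc23 and H4bc24 rest on 2 reads each.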

Other observations

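Some histone summits other than the strongest of a gene had smaller p-values than most described above; they were chosen after their values were seen and none passed the threshold. A summit between H1f6 and H4c3 (chromosome 13, 23697707 to 23697708) was at 20.3 ± 8.37 in CSDS30, 28.1 ± 0.946 in CSDS10 and 12.9 ± 8.22 in control, with a log2 fold change of 1.33 ± 0.40 in CSDS10 against control (limma, adjusted p = 0.9999). The control libraries of this summit were at 18.2, 3.47 and 17.2, so the low value of control replicate 2 enlarged the fold change. In cluster 3, 3 summits of H2aw lay above control in all 5 CSDS10 libraries, at 52.6 ± 4.82 against 38.3 ± 7.38, 49.7 ± 9.29 against 29.2 ± 7.54 and 42.8 ± 4.44 against 24.4 ± 7.35 normalised reads, while the strongest summit of the same gene was at 93.3 ± 16.4 in CSDS10 and 96.1 ± 6.24 in control. A summit of H2bu2, the H2B gene next to it, was at 30.9 ± 4.74 in CSDS10 and 19.8 ± 2.66 in control.

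Lower values stood beside them. A summit within 2 kb of H2ac21, H2ac20 and H2bc21 in cluster 2 was at 34.4 ± 2.44 in CSDS10 and 50.3 ± 7.92 in control, and one near H2ac22 and H2bc22 was at 17.4 ± 6.37 in CSDS30 and 25.5 ± 6.67 in control, both without overlap between the groups.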
